A study of Homo sapiens with 6 samples.

Results

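Interferon-stimulated genes were followed after knockdown of TRIM21 in RKO, an established human cell line grown out of a colon carcinoma with little differentiation. The 52 genes were taken as the rows whose symbol equals a listed name. All 52 had a row among the 28278 rows of the tables, 39 had enough reads to be tested, 9 were too low to test and 4 were listed at 0 in every library. The 3 shTRIM21 libraries came from RKO cells carrying a lentiviral hairpin against TRIM21, and the 3 shControl libraries from RKO cells carrying a scrambled lentiviral hairpin. Both arms were selected with puromycin at 5 µg/ml, begun 36 h after infection and kept for 2 to 3 weeks, and no label gives an interferon, a virus or another stimulus. The labels name 1 hairpin construct per arm, do not say whether cells were cloned and give no separate infections for the replicates, so the p-values measure the spread between these libraries. One label field names mouse tissue as the source, while the organism, the line and the gene symbols are human.

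Type I interferons bind the receptor pair IFNAR1 and IFNAR2, whose kinases JAK1 and TYK2 phosphorylate STAT proteins. STAT2 and IRF9 are part of the complex ISGF3, which binds interferon-stimulated response elements (ISRE) in the promoters of many interferon-stimulated genes. Interferon gamma signals through IFNGR1 and IFNGR2 to STAT dimers that bind gamma-activated sites (GAS). Many of the induced proteins detect, bind or degrade viral RNA, stop translation or block virus entry, and epithelial tumour cells keep basal levels of some of them. TRIM21, itself induced by interferon, is a cytosolic antibody receptor and E3 ubiquitin ligase with reported substrates among the interferon regulatory factors.

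The libraries held 33499827 to 38051662 counts in shTRIM21 and 33829727 to 44466137 in shControl. Ribosomal RNA rows took 19.9 ± 3.32% of them in shTRIM21 and 27.5 ± 11.5% in shControl (SD, n = 3 each; two-sided exact permutation p = 0.4, where 0.1 is the smallest that 3 against 3 allows). TRIM21 had 7.97, 6.92 and 7.85 CPM (counts scaled to a common library size) in shTRIM21 libraries, against 12.2, 11.5 and 9.47 CPM in shControl. The groups did not overlap, and TRIM21 fell by 31.3% (log2 fold change -0.54, SE 0.12, adjusted p = 0.00424 by edgeR's quasi-likelihood test). That call is lost when libraries are scaled by their totals alone (adjusted p = 0.197). Of 7 epithelial marker genes, all 7 were tested, and the sum of their levels was 4916 to 5155 CPM in shTRIM21 and 6264 to 6899 CPM in shControl. KRT8, KRT18 and KRT19 fell (lost with library totals alone, adjusted p = 0.425, 0.344 and 0.534) and CDH1 rose, while the other 3 markers were not called. Among all tested genes 11% were called lower and 9.77% higher. The part of these markers in the results below was not tested. The intestinal factor CDX2 averaged 22.0 ± 1.63 CPM in shTRIM21 and 22.1 ± 0.731 CPM in shControl, while CDX1 was listed at 0 and LGR5, MUC2 and CDH17 were too low to test. KRT20, a keratin of differentiated intestinal epithelium and the intestinal marker with the smallest p, had 1.95, 1.71 and 2.03 CPM in shTRIM21, against 1.83, 0.680 and 0.359 CPM in shControl. It was not called (log2 fold change 0.98, adjusted p = 0.0984), but it passed under 6 of 17 alternative settings, and was 1.86 (adjusted p = 0.00323) without shControl replicate 1.

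Promoter sequences of genes that changed are shown first, because interferon acts on many genes of this family through promoter elements. Not all genes that changed hold an exact match to the words searched here. RefSeq promoter windows on GRCh38.p14, which reach 250 bases before and 50 after the annotated start, were matched to 43 of the 52 genes. The ISRE-type word searched was GAAA, then any 2 bases, then GAAA, on both strands, and overlapping copies were counted separately. Such a word occurred in 28 of the 43 windows (65.1%), against 996 of 27305 promoters in all (3.65%) and 312 of 11267 promoters of tested genes (2.77%). The GAS-type word TTCNNNGAA, which reads alike on both strands, occurred in 12 of the 43 windows (27.9%), against 7.88% of all promoters and 6.08% of those of tested genes. Of the 14 GAS-type words in these windows, 4 overlapped an ISRE-type word. These are matches of letters and were not tested as binding sites.

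Below are the stretches around the ISRE-type words, in capitals, of the 5 genes that rose and held one, then of both genes that fell, each 5′ to 3′ in the gene's own direction. They lie at chr10:89392487-89392549 (plus strand) for IFIT1, chr1:1013364-1013419 (plus) for ISG15, chr1:27672256-27672368 (minus) for IFI6, chr11:313980-314063 (plus) for IFITM1 and chr7:93118086-93118135 (minus) for SAMD9. Those of the genes that fell lie at chr3:122564312-122564361 (plus) for DTX3L and chr2:37156957-37157006 (minus) for EIF2AK2.
IFIT1: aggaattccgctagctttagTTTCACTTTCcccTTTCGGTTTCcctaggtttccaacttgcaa
ISG15: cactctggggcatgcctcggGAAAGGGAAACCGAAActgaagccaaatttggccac
IFI6: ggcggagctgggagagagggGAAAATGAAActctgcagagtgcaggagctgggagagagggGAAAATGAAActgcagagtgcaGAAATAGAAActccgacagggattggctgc
IFITM1: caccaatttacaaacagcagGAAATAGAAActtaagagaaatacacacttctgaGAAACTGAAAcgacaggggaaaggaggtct
SAMD9: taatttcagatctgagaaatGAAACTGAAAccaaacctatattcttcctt
DTX3L: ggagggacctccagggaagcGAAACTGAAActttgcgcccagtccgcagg
EIF2AK2: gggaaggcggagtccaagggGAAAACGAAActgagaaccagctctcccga

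In IFIT1 the words stand on the opposite strand and so read as TTTC, any 2 bases, TTTC. Positions are those of a word's first base in the gene's direction, with the annotated start as 0. Both genes that fell carry a single word that begins 6 bases before the annotated start (position -6), while the words of the genes that rose begin at positions between -156 and -6. The other 4 genes that rose, IRF9, SP110, HERC6 and DDX58, had no exact ISRE-type word in the window. Looser spellings or other spacings of the element were not searched. A GAS-type word was held by 2 of the 9 genes that rose and by 0 of the 2 that fell. It was also held by 8 of 22 tested genes with a window that were not called (36.4%). Of the genes that rose, IFITM1 had it at position -12 and IRF9 at position -63, the latter in capitals in this stretch of chr14:24161182-24161230 (plus strand).
IRF9: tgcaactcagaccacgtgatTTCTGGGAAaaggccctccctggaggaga

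An ISRE-type word was held by 5 of the 9 genes that rose, by 2 of the 2 that fell and by 17 of 22 tested genes with a window that were not called (77.3%), so holding the word did not separate the genes that moved from those that did not. For comparison within the IFIT family, IFIT3 and IFIT5 were not called and hold 2 and 3 words, in capitals, in the stretches chr10:89327821-89327904 and chr10:89414503-89414593 (both plus strand).
IFIT3: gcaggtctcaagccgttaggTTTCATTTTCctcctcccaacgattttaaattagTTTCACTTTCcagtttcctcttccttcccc
IFIT5: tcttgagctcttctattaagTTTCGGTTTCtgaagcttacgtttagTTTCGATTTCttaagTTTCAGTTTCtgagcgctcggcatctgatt

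**Figure D1:**
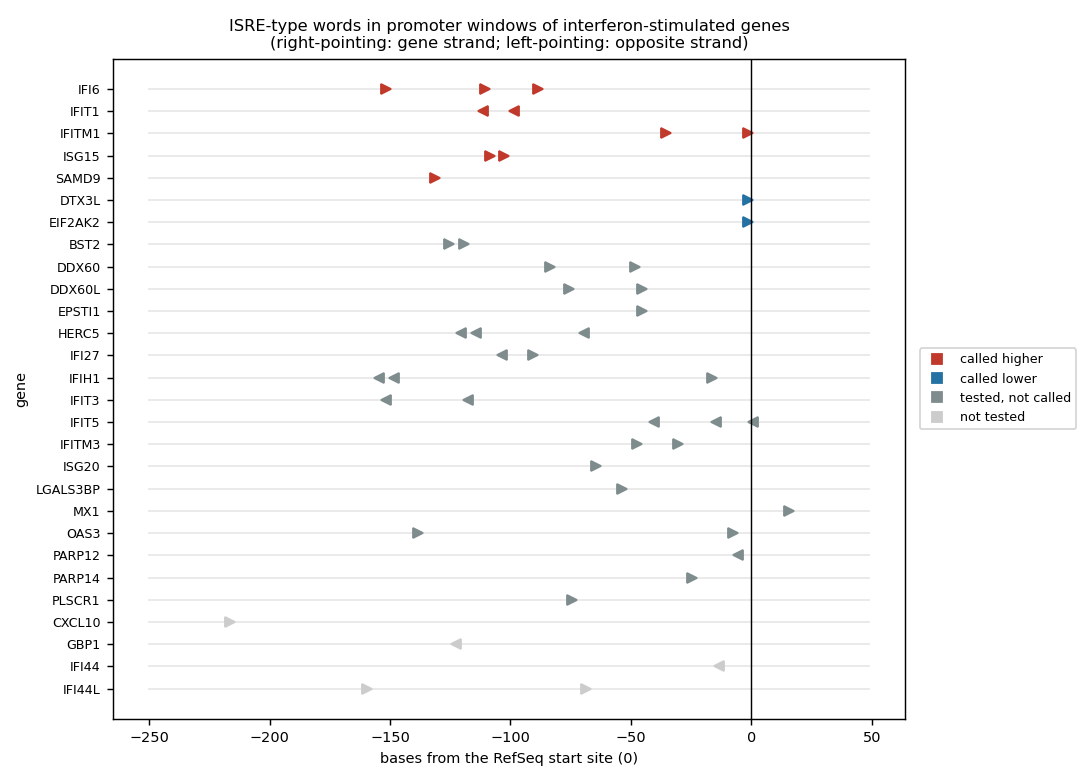
Position of every ISRE-type word (GAAA, 2 bases, GAAA) in the promoter windows of the 28 genes that hold one, in bases from the RefSeq start (0); triangles sit at word centres, point right for the gene strand and left for the opposite strand, and are coloured by call. Rows are ordered by call: from the top the 5 genes that rose (red), the 2 that fell (blue) and the 17 tested genes not called (grey). Genes that were not tested (light grey) stand last.

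Of the 39 tested genes, 9 rose in shTRIM21 (23.1%) and 2 fell (5.13%) at an adjusted p under 0.05, and 28 were not called. Among all 15131 tested genes the test called 20.8% in either direction, 9.77% higher and 11% lower. The called share of the interferon-stimulated genes was 28.2%, and their median log2 fold change was 0.07, against 0.01 for all tested genes. Log2 fold changes were above 0 for 22 genes and below 0 for 17, and ran between -0.53 (DTX3L) and 1.39 (IFITM1). The shTRIM21 and shControl libraries did not overlap for 18 genes (46.2%), 15 of them higher and 3 lower in shTRIM21, against 37.7% of all tested genes, 18.7% higher and 19% lower. Scaling by library totals alone moved the median of all tested genes to 0.22 and that of the interferon-stimulated genes to 0.29, with 11 genes called higher and none lower. In bulk RNA, a change in the share of cells that express a gene and a change in RNA per cell cannot be told apart.

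**Figure D2:**
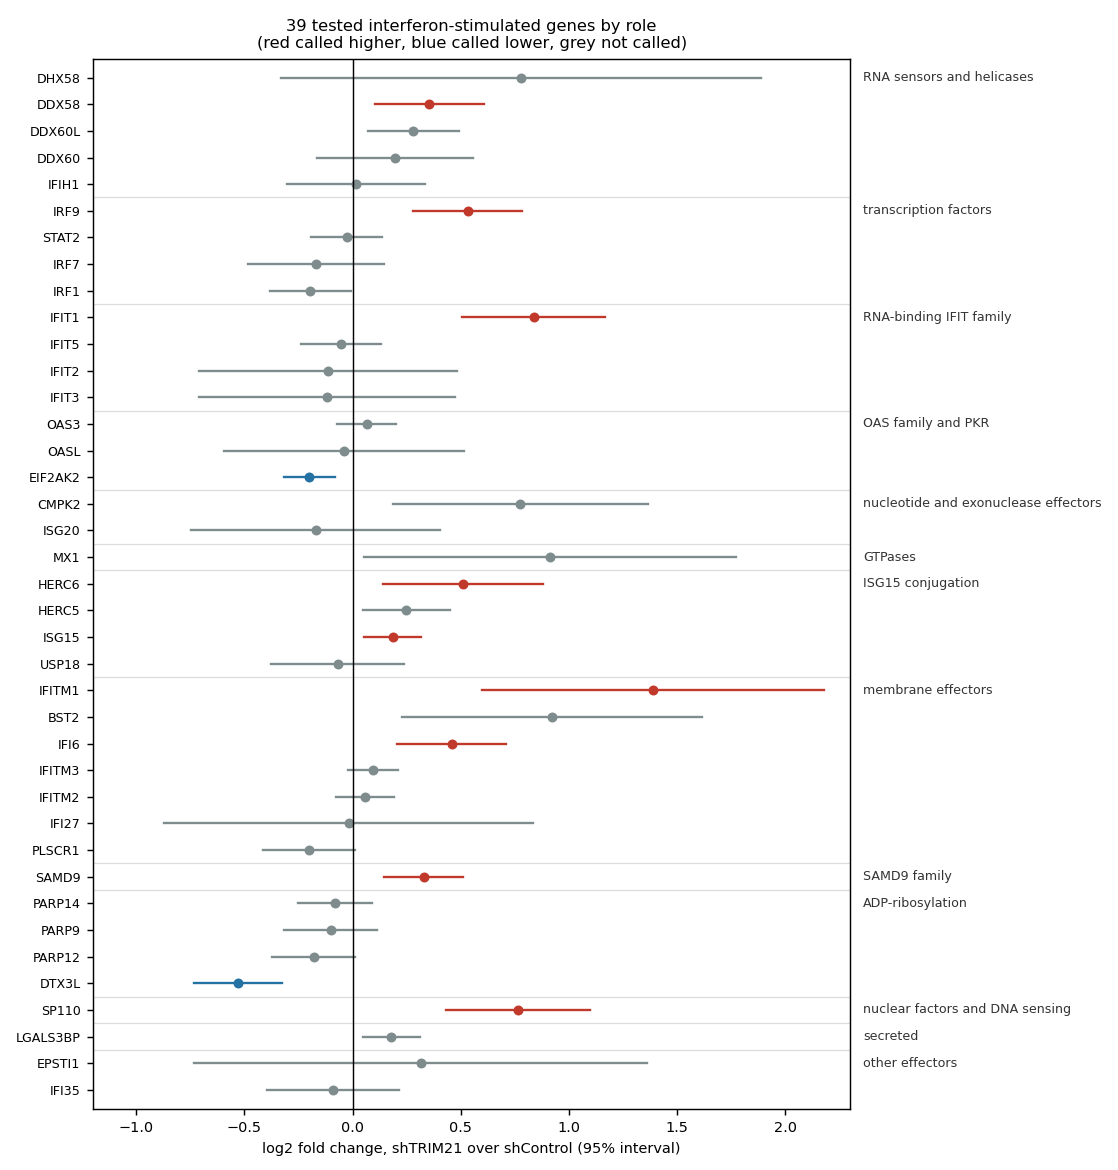
Log2 fold change of shTRIM21 over shControl for the 39 tested genes, grouped by role; points are edgeR estimates and lines their 95% intervals, red for called higher, blue for called lower and grey for not called. The 9 genes called higher fall into 7 of the 13 roles, and the 2 called lower are EIF2AK2 and DTX3L.

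Most of these genes were weakly expressed in RKO cells. Per kilobase of exon, the highest level was that of IFITM3, a membrane protein that blocks virus fusion, with 154.6 ± 8.97 CPM per kb in shTRIM21 and 145.0 ± 1.91 in shControl (SD, n = 3 each). LGALS3BP, a secreted glycoprotein, followed with 118 ± 1.90 CPM per kb in shTRIM21 and 104 ± 9.09 in shControl, and ISG15 with 105 ± 8.72 and 92.5 ± 0.9749 CPM per kb in the same groups. IFITM2 came next at 25.1 ± 1.19 CPM per kb in shTRIM21 and 24.1 ± 0.690 in shControl, and OAS3 at 10.5 ± 0.235 and 10.01 ± 0.866. The means of these 5 genes stand further apart than the sum of their SDs in both groups. Below them the order differed by group, with EIF2AK2 at 7.02 ± 0.193 and IFI6 at 10.03 ± 0.869 CPM per kb in shTRIM21, against 8.06 ± 0.321 and 7.30 ± 0.661 CPM per kb in shControl, and in shTRIM21 IFI6 was not separated from OAS3. IFIT1, IRF9 and SP110, which rose, had only 1.57 ± 0.224, 2.37 ± 0.141 and 0.919 ± 0.0702 CPM per kb in shTRIM21, against 0.879 ± 0.146, 1.64 ± 0.186 and 0.540 ± 0.108 CPM per kb in shControl. The levels of all 52 genes summed to 1216, 1194 and 1197 CPM in shTRIM21, against 1159, 1086 and 1137 CPM in shControl, and LGALS3BP, IFITM3 and ISG15 made up 59.5% of that sum. Without these 3 genes the sums overlapped, at 469, 467 and 479 CPM in shTRIM21 and 488, 465 and 459 CPM in shControl.

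**Figure D3:**
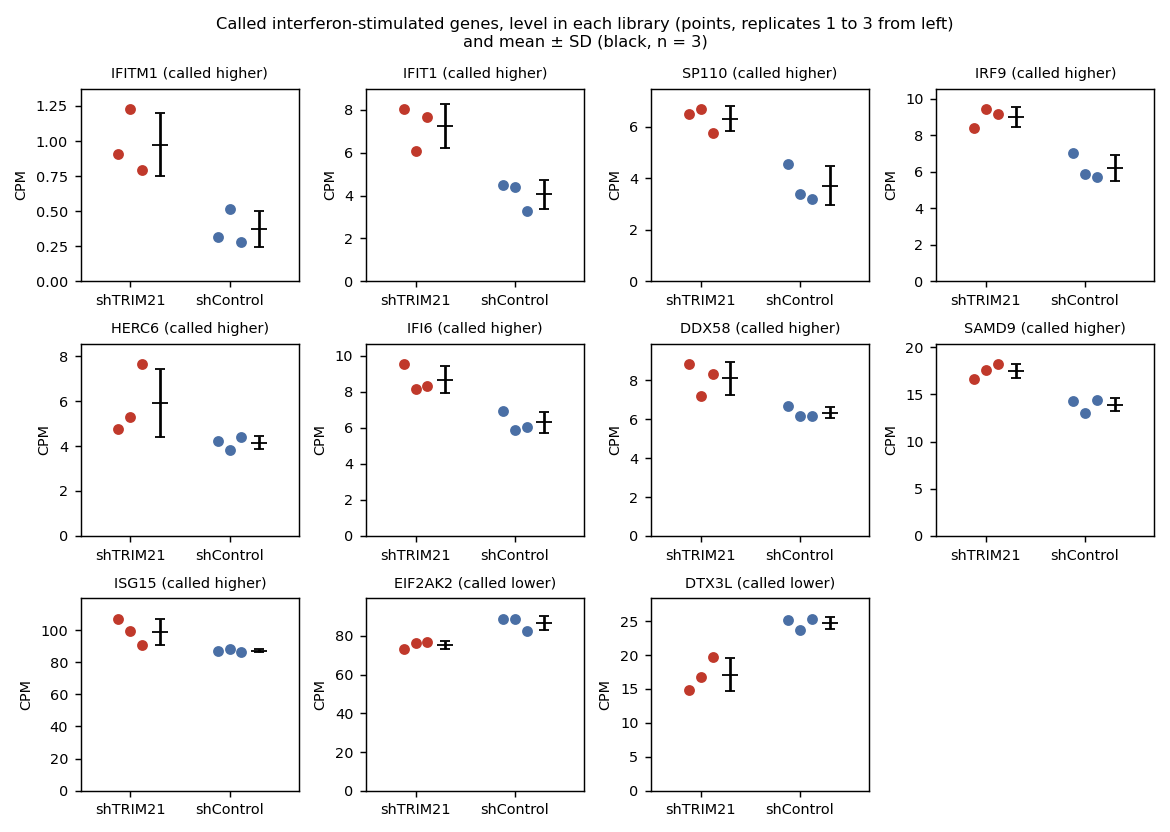
CPM in each library of the 11 called genes, with points for replicates 1 to 3 of each group and black bars for the mean ± SD (n = 3). In every panel the shTRIM21 points lie wholly above or wholly below the shControl points, for ISG15 with 90.5 CPM in the lowest shTRIM21 library and 88.1 CPM in the highest shControl library.

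Among the transcription factors, IRF9, the DNA-binding subunit of ISGF3 (chr14:24161265-24166565), rose in shTRIM21. Its level was 8.395, 9.42 and 9.17 CPM in shTRIM21 libraries, against 7.02, 5.90 and 5.71 CPM in shControl. The groups were apart, and the log2 fold change was 0.53 (SE 0.12, adjusted p = 0.00511). All 50-base words of its longest transcript also occur in a readthrough model of the GENCODE release 29 annotation (AL136295.5), so reads of that transcript cannot be told apart from reads of the model. STAT2, its partner in ISGF3, had 19.5, 20.3 and 20.4 CPM in shTRIM21 and 21.3, 20.3 and 19.8 CPM in shControl. These overlapped, with a log2 fold change of -0.03 and a 95% interval between -0.19 and 0.13. IRF7, which amplifies interferon transcription, averaged 5.602 ± 1.08 CPM in shTRIM21 and 6.29 ± 0.557 CPM in shControl (log2 fold change -0.17, adjusted p = 0.461). IRF1, a factor induced strongly by interferon gamma, averaged 15.4 ± 0.491 CPM in shTRIM21 and 17.7 ± 1.46 CPM in shControl. Its groups did not overlap, but it missed the threshold (log2 fold change -0.19, adjusted p = 0.129).

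All 5 RNA sensors and helicases had log2 fold changes above 0, and 1 of them rose, where 9.77% of all tested genes were called higher. DDX58, which encodes the cytosolic RNA sensor RIG-I (RIGI in RefSeq, chr9:32455302-32526196), had 8.82, 7.17 and 8.32 CPM in shTRIM21, against 6.68, 6.15 and 6.18 CPM in shControl. Its groups did not overlap, with a log2 fold change of 0.35 (SE 0.12, adjusted p = 0.0462). The call of DDX58 rested on each of several libraries: the adjusted p was 0.156 without shTRIM21 replicate 1, 0.109 without shTRIM21 replicate 3, and 0.0631, 0.103 and 0.115 without shControl replicates 1, 2 and 3. IFIH1, the sensor MDA5, averaged 4.27 ± 0.286 CPM in shTRIM21 and 4.23 ± 0.472 CPM in shControl (log2 fold change 0.01, 95% interval between -0.30 and 0.33). With 1 library left out its log2 fold change ran between -0.073 and 0.078, so its sign was not kept. DHX58, the regulator LGP2, had no more than 0.476 CPM in any library and a log2 fold change of 0.78 with a 95% interval between -0.33 and 1.89. DDX60L had 14.1, 17.2 and 17.2 CPM in shTRIM21, against 13.7, 12.5 and 13.8 CPM in shControl, without overlap (log2 fold change 0.28, adjusted p = 0.0551). Its neighbour DDX60, a helicase reported to promote RIG-I signalling, had a log2 fold change of 0.20 (adjusted p = 0.451), and of -0.067 with shControl replicates 1 and 3 left out.

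IFIT1, which binds viral RNA that lacks host-type cap methylation (chr10:89392623-89406487), was the 1 gene of the 4 in its family that passed. The share called higher among all tested genes was 9.77%. IFIT1 is followed first. IFIT1 had 8.02, 6.08 and 7.66 CPM in shTRIM21, from raw counts of 301, 238 and 290. In shControl it had 4.504, 4.38 and 3.28 CPM, from raw counts of 170, 161 and 119. Every shTRIM21 library was above every shControl library, and the log2 fold change was 0.84 (SE 0.16, adjusted p = 0.0016), a 1.79-fold higher level. IFIT2 averaged 1.88 ± 0.700 CPM in shTRIM21 and 2.04 ± 0.496 CPM in shControl, and IFIT3, which binds and stabilises IFIT1, averaged 1.52 ± 0.302 CPM in shTRIM21 and 1.65 ± 0.540 CPM in shControl. IFIT5 was the most abundant of the family, with 26.0 ± 2.12 CPM in shTRIM21 and 27.0 ± 2.75 CPM in shControl. The libraries of IFIT2, IFIT3 and IFIT5 overlapped, with log2 fold changes of -0.11, -0.12 and -0.05 and adjusted p-values of 0.813, 0.806 and 0.712. The 95% intervals of IFIT2 and IFIT3 are wide, between -0.71 and 0.48 and between -0.71 and 0.47, while that of IFIT5 reached no higher than 0.13, below the lower bound of IFIT1 at 0.50. All 4 genes lie in 1 cluster on chromosome 10 and overlap LIPA in the RefSeq table. IFIT1 and IFIT5 are 8.1 kb apart with no coding gene between them. Only 1.03% of the 50-base words of IFIT1 occur in another gene.

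Of the OAS family and PKR, which act on double-stranded RNA, EIF2AK2 fell, where 11% of all tested genes were called lower. EIF2AK2, encoding the kinase PKR that halts translation (chr2:37099210-37156980), had 73.1, 76.2 and 77.1 CPM in shTRIM21, against 88.7, 88.6 and 82.7 CPM in shControl. The groups were apart, and the log2 fold change was -0.20 (SE 0.06, adjusted p = 0.0192). With library totals alone as the scaling it was 0.01, so its direction depends on the scaling. With 1 library left out, the adjusted p was 0.065 without shTRIM21 replicate 1, 0.0625 without shTRIM21 replicate 2 and 0.0608 without shControl replicate 1. EIF2AK2 overlaps GPATCH11 and ARL14EPP1 in the RefSeq table. OAS3, which makes the activator of RNase L, averaged 86.5 ± 1.94 CPM in shTRIM21 and 82.6 ± 7.14 CPM in shControl (log2 fold change 0.07, adjusted p = 0.51). OASL averaged 2.04 ± 0.803 CPM in shTRIM21 and 2.10 ± 0.0260 CPM in shControl (log2 fold change -0.04, adjusted p = 0.934). OAS1, with counts of 8, 5 and 15 in shTRIM21 and 6, 3 and 4 in shControl, and OAS2, with 2, 1 and 6 in shTRIM21 and 0, 5 and 2 in shControl, were too low to test.

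In the ISG15 conjugation group of 4 genes, ISG15 and HERC6 rose, beside 9.77% called higher among all tested genes. ISG15, the ubiquitin-like modifier (chr1:1013497-1014540), had 106.8, 99.4 and 90.5 CPM in shTRIM21, against 86.7, 88.1 and 86.3 CPM in shControl. This is a small and unevenly spread difference, with a log2 fold change of 0.18 (SE 0.06, adjusted p = 0.0465). It missed the threshold without shTRIM21 replicate 1 (adjusted p = 0.188), shTRIM21 replicate 2 (0.162), shControl replicate 1 (0.101), shControl replicate 2 (0.0661) or shControl replicate 3 (0.117), and with ribosomal RNA rows left out (0.0537). HERC6, a relative of the human ISG15 ligase HERC5 (chr4:88378852-88443097), had 4.77, 5.31 and 7.64 CPM in shTRIM21, against 4.24, 3.81 and 4.39 CPM in shControl. The difference came largely from shTRIM21 replicate 3: the log2 fold change was 0.51 (SE 0.17, adjusted p = 0.0483) with it and 0.28 (adjusted p = 0.251) without it. The call was also lost without shTRIM21 replicate 2 (adjusted p = 0.0713) and without shControl replicate 1 (0.0953), 2 (0.124) or 3 (0.0771). HERC5 itself had 11.8, 11.6 and 11.2 CPM in shTRIM21, against 9.30, 10.2 and 9.72 CPM in shControl, without overlap (log2 fold change 0.25, adjusted p = 0.0761). USP18, which removes ISG15 and restrains the receptor, averaged 5.05 ± 0.565 CPM in shTRIM21 and 5.30 ± 0.614 CPM in shControl (log2 fold change -0.07, adjusted p = 0.78), and 23.4% of its 50-base words occur in other genes, chiefly USP41.

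Among 7 membrane effectors, IFITM1 and IFI6 rose, where 9.77% of all tested genes were called higher. IFITM1, which blocks virus entry at the cell surface (chr11:314040-315272), was read 34, 48 and 30 times in shTRIM21 and 12, 19 and 10 times in shControl. This gave 0.906, 1.23 and 0.793 CPM in shTRIM21, against 0.318, 0.517 and 0.276 CPM in shControl. The groups did not overlap, and the log2 fold change of 1.39 (SE 0.37, adjusted p = 0.0157) was the largest of the 39 genes and rests on few reads. It missed the threshold without shTRIM21 replicate 2 (adjusted p = 0.0842), shControl replicate 1 (0.0538) or shControl replicate 3 (0.06). Its 50-base words occur in other genes, chiefly IFITM2 and IFITM3, for 42.3%, so part of its reads may be shared with neighbours of far higher level. IFITM2 averaged 38.7 ± 1.83 CPM in shTRIM21 and 37.2 ± 1.06 CPM in shControl (log2 fold change 0.06), and IFITM3 averaged 208 ± 12.1 CPM in shTRIM21 and 195 ± 2.57 CPM in shControl (log2 fold change 0.09), with adjusted p-values of 0.573 and 0.243.

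IFI6, a small protein of the endoplasmic reticulum and mitochondria with activity against flaviviruses (chr1:27666064-27672192), had 9.54, 8.17 and 8.32 CPM in shTRIM21, against 6.97, 5.90 and 6.07 CPM in shControl. Its groups were apart, with a log2 fold change of 0.46 (SE 0.12, adjusted p = 0.0132), and the adjusted p was 0.0596 without shTRIM21 replicate 1. BST2 (tetherin), which holds budding virions at the membrane, had 1.25, 1.07 and 0.925 CPM in shTRIM21, against 0.424, 0.626 and 0.662 CPM in shControl. It did not overlap but missed the threshold (log2 fold change 0.92, SE 0.32, adjusted p = 0.0563). PLSCR1, a phospholipid scramblase, averaged 15.9 ± 1.89 CPM in shTRIM21 and 18.3 ± 1.498 CPM in shControl (log2 fold change -0.20, adjusted p = 0.167). IFI27 had at most 0.536 CPM in any library (log2 fold change -0.02, 95% interval between -0.87 and 0.83).

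All 4 genes of the ADP-ribosylation group had log2 fold changes below 0, and DTX3L fell, where 11% of all tested genes were called lower. DTX3L, an E3 ubiquitin ligase that works in a complex with PARP9 (chr3:122564338-122575203), had 14.9, 16.7 and 19.8 CPM in shTRIM21, against 25.1, 23.8 and 25.3 CPM in shControl. Every shTRIM21 library was below every shControl library, and the level fell by 30.7% (log2 fold change -0.53, SE 0.10, adjusted p = 0.00131). PARP9, whose 5′ end overlaps the start of DTX3L on the opposite strand, averaged 12.3 ± 1.10 CPM in shTRIM21 and 13.2 ± 1.16 CPM in shControl (log2 fold change -0.10, adjusted p = 0.525). PARP12 averaged 15.6 ± 1.21 CPM in shTRIM21 and 17.7 ± 1.16 CPM in shControl, and PARP14 averaged 19.5 ± 1.28 CPM in shTRIM21 and 20.6 ± 0.805 CPM in shControl. Their log2 fold changes were -0.18 and -0.08, with adjusted p-values of 0.175 and 0.513. With library totals alone the changes of PARP9, PARP12 and PARP14 were 0.11, 0.04 and 0.13, and DTX3L kept its direction at -0.31 but lost its call (adjusted p = 0.201).

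SP110, a nuclear body protein (chr2:230165186-230225636), rose. It had 6.50, 6.66 and 5.76 CPM in shTRIM21, against 4.56, 3.40 and 3.17 CPM in shControl. The groups were well apart, with a log2 fold change of 0.76 (SE 0.16, adjusted p = 0.00306). The gene overlaps SP140 in the RefSeq table, and 0.187% of its 50-base words occur elsewhere. SAMD9, a cytosolic factor that restricts poxviruses (chr7:93099518-93117979), had 16.7, 17.6 and 18.2 CPM in shTRIM21, against 14.3, 13.1 and 14.4 CPM in shControl. It rose without overlap (log2 fold change 0.33, SE 0.09, adjusted p = 0.0137), and the adjusted p was 0.0625 without shTRIM21 replicate 2. Its neighbour SAMD9L was read 7 times in 1 shTRIM21 library and not in the other libraries, and IFI16, a nuclear DNA sensor, was read 3, 4 and 4 times in shTRIM21 and 0, 4 and 0 times in shControl.

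LGALS3BP had 419.5, 419.2 and 431 CPM in shTRIM21, against 386, 337 and 399 CPM in shControl. The groups did not overlap and the gene missed the threshold narrowly (log2 fold change 0.18, SE 0.06, adjusted p = 0.0521). It passed under 10 of the 17 alternative settings, with an adjusted p of 0.0382 without shControl replicate 3. CMPK2, a mitochondrial nucleotide kinase, had 1.79, 1.58 and 1.69 CPM in shTRIM21, against 1.11, 0.653 and 1.19 CPM in shControl (log2 fold change 0.77, SE 0.28, adjusted p = 0.0597). MX1, a GTPase that traps viral nucleocapsids, had 0.586, 0.511 and 0.898 CPM in shTRIM21, against 0.424, 0.408 and 0.221 CPM in shControl (log2 fold change 0.91, SE 0.40, adjusted p = 0.125). Neither of these pairs of groups overlapped. ISG20, an RNA exonuclease, averaged 1.29 ± 0.245 CPM in shTRIM21 and 1.46 ± 0.340 CPM in shControl (log2 fold change -0.17). IFI35 averaged 5.83 ± 0.504 CPM in shTRIM21 and 6.22 ± 1.05 CPM in shControl (log2 fold change -0.09), and EPSTI1 averaged 0.315 ± 0.0730 CPM in shTRIM21 and 0.251 ± 0.133 CPM in shControl (log2 fold change 0.31). None of ISG20, IFI35 and EPSTI1 passed (adjusted p-values 0.703, 0.696 and 0.699).

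Several genes that are among the most inducible by interferon in other cells were hardly detected. MX2, IFI44L, XAF1 and GBP1 were listed at 0 in all 6 libraries, as were 7790 rows of the tables, among them FBL, RPL7A, CANX and TJP1, which nearly all human cells use. A listed 0 is therefore given as such and not as a measured absence. IFI44 was read 8, 4 and 8 times in shTRIM21 and 6, 3 and 3 times in shControl, and RSAD2 (viperin) was read 0, 0 and 2 times in shTRIM21 and 6, 0 and 0 times in shControl. GBP2 was read 1, 3 and 1 times in shTRIM21 and 0, 1 and 8 times in shControl. The chemokine gene CXCL10 was read 0, 2 and 0 times in shTRIM21 and 0, 3 and 0 times in shControl, and CXCL11 once among all 6 libraries. Of the tested genes, IFITM1, MX1 and IFI27 were above the level of the filter in 3 shTRIM21 and 2 shControl libraries, DHX58 in 3 and 1, and EPSTI1 in 2 and 1, and none was above it in shTRIM21 libraries alone.

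**Figure D4:**
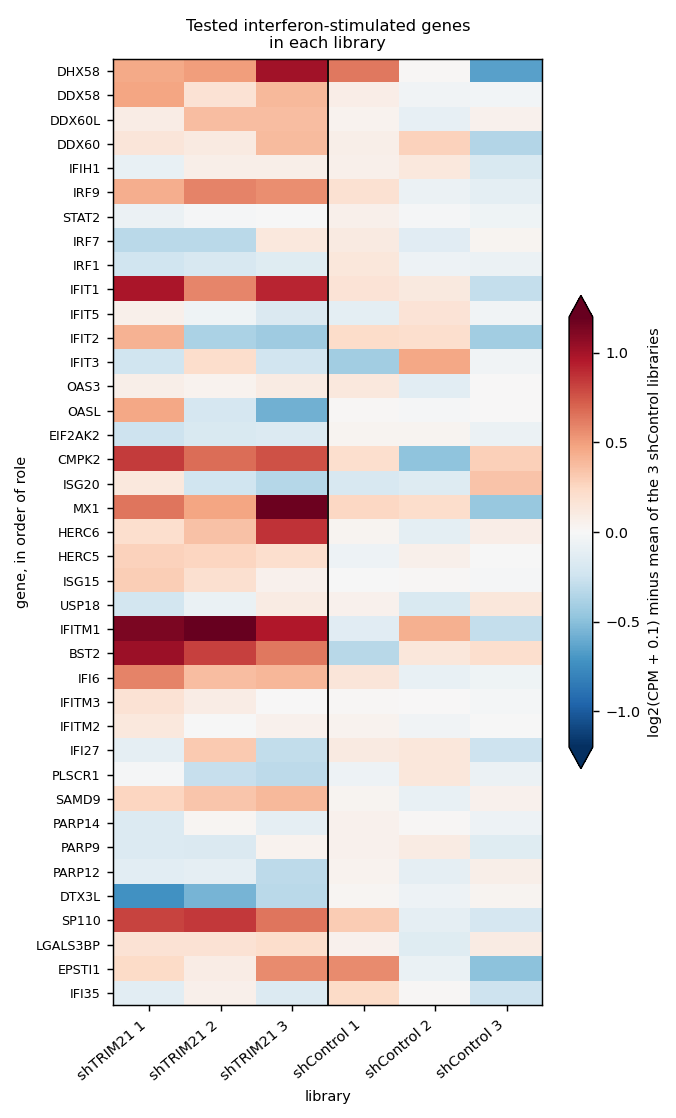
Log2(CPM + 0.1) of the 39 tested genes in each library minus the mean of the 3 shControl libraries, red for higher and blue for lower. Each shTRIM21 library has 25 of 39 genes above that mean, while the shControl libraries have 31, 19 and 13.

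The shControl libraries differed among themselves over these genes. Measured against the shControl mean on the log2(CPM + 0.1) scale, 25, 25 and 25 of the 39 genes were above it in shTRIM21 replicates 1, 2 and 3, against 31, 19 and 13 in shControl replicates 1, 2 and 3. That mean is taken from the shControl libraries themselves. Their counts are therefore tied to each other, while those of shTRIM21 are not. The median deviations were 0.15, 0.09 and 0.10 in shTRIM21, against 0.05, -0.01 and -0.04 in shControl. Thus shControl replicate 1 had more genes above the mean than any shTRIM21 library, but by small amounts. Ribosomal RNA took 31.0%, 14.7% and 36.9% of counts in shControl replicates 1, 2 and 3, and its part in these differences was not tested. With shControl replicates 1 and 3 left out together, only 1 shControl library remained, and the median log2 fold change of the 39 genes was 0.09.

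**Figure D5:**
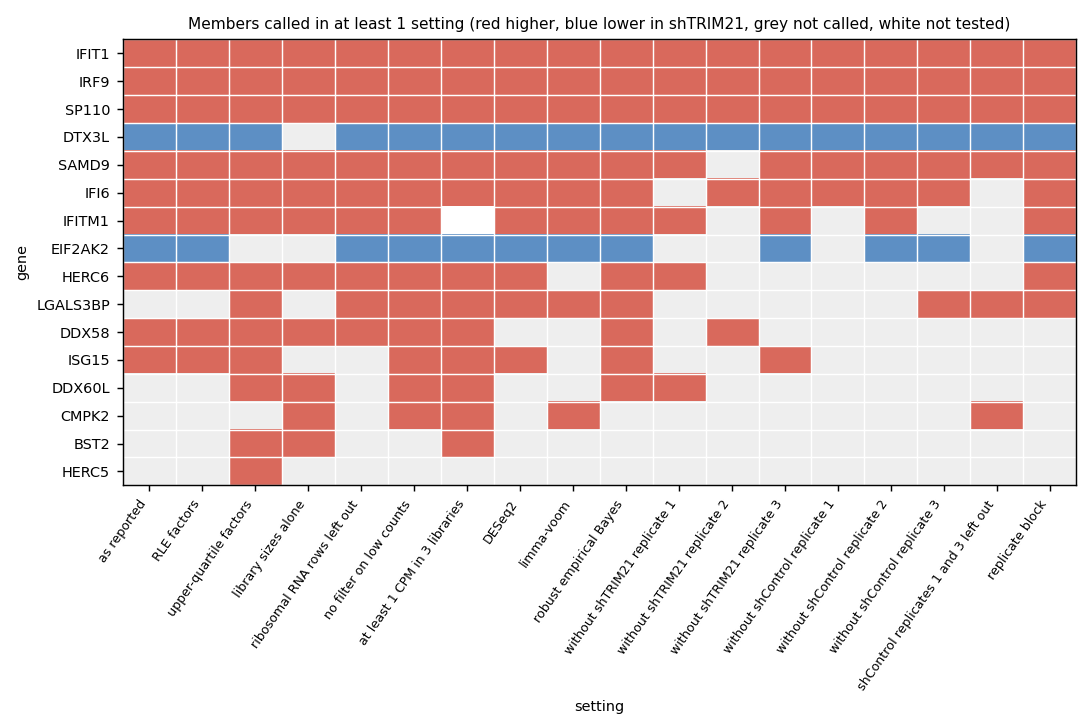
Calls of the 16 interferon-stimulated genes that passed in at least 1 of 18 settings, the reported one and 17 alternatives; red is called higher, blue called lower, grey not called and white not tested. IFIT1, IRF9 and SP110 are called in all 18, DTX3L and SAMD9 in 17, and ISG15 in 8.

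IFIT1, IRF9 and SP110 were called higher under each of the 17 alternatives, with log2 fold changes that kept their sign. DTX3L was lost only with library totals as the scaling and SAMD9 only without shTRIM21 replicate 2. IFI6 passed under 15 alternatives, IFITM1 under 12 of the 16 that tested it, EIF2AK2 under 11, HERC6 under 10, DDX58 under 8 and ISG15 under 7. Of the 28 genes not called, 23 passed under none of them.

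Where 1 gene of a cluster changed, its tested neighbours did not pass. Of all tested genes 20.8% were called in either direction, so most genes did not pass. IFITM1, which rose, stands 4.6 kb from IFITM2 and 4.4 kb from IFITM3, neither of which was called. HERC6, which rose, stands 14021 bases from HERC5, which was not called but was higher without overlap (log2 fold change 0.25, adjusted p = 0.0761). DTX3L, which fell, overlaps PARP9, which was not called. The differences between neighbours were not tested, and strand was not given for the counting, so reads of overlapping genes cannot be told apart.

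The ligands of the pathway were barely read in these cells. Of 21 interferon genes, 16, including IFNB1 and IFNG, were listed at 0 in all libraries and none could be tested. IFNE, an epithelial type I interferon, had 6, 4 and 14 reads in shTRIM21 and 5, 0 and 2 reads in shControl. Of the 6 receptor subunits, 3 rose and 1 fell, beside 9.77% called higher and 11% called lower among all tested genes. IFNAR1 had 35.0, 32.2 and 32.4 CPM in shTRIM21, against 27.5, 29.7 and 27.5 CPM in shControl (log2 fold change 0.23, adjusted p = 0.027), and IFNAR2 had 14.9, 12.7 and 13.2 CPM in shTRIM21, against 11.6, 10.5 and 10.5 CPM in shControl (0.32, adjusted p = 0.0283). For the interferon gamma receptor, IFNGR1 averaged 21.2 ± 1.04 CPM in shTRIM21 and 16.0 ± 2.03 CPM in shControl (0.41, adjusted p = 0.00647), while IFNGR2 averaged 33.4 ± 1.02 CPM in shTRIM21 and 44.5 ± 5.49 CPM in shControl (-0.42, adjusted p = 0.00196). The groups did not overlap for any of these 4 called subunits, beside 37.7% of all tested genes without overlap. The other 2 subunits were not called. The calls of IFNAR1 and IFNAR2 were lost without shTRIM21 replicate 1 (adjusted p = 0.0945 and 0.113) and without shControl replicate 3 (0.0866 and 0.0878). IFNAR1 also lost its call without shTRIM21 replicate 2 (0.0696) or shControl replicate 1 (0.0731), and IFNAR2 without shControl replicate 2 (0.071). With library totals alone as the scaling, IFNGR2 was at -0.22 (adjusted p = 0.365) and IFNAR1 at 0.44 (adjusted p = 0.0517), and neither was called.

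In signalling from the receptors, STAT3, a transcription factor activated by many cytokines, rose. It averaged 71.1 ± 2.29 CPM in shTRIM21 and 61.3 ± 3.13 CPM in shControl, and the groups did not overlap (log2 fold change 0.21, adjusted p = 0.0184). With library totals alone it was at 0.43 and not called (adjusted p = 0.0553). Its adjusted p was 0.0598 and 0.0577 without shTRIM21 replicates 2 and 3, and 0.0534 and 0.0681 without shControl replicates 2 and 3. Among 20 tested negative regulators, 5 fell and none rose, where 11% of all tested genes were called lower and 9.77% higher. PTPN1, a phosphatase of JAK kinases, averaged 85.6 ± 0.588 CPM in shTRIM21 and 113 ± 3.64 CPM in shControl (-0.40, adjusted p = 7.86e-05). SOCS3, an inhibitor of cytokine receptors, averaged 22.9 ± 1.51 CPM in shTRIM21 and 29.2 ± 0.711 CPM in shControl (-0.35, adjusted p = 0.00366), and SOCS2 averaged 13.4 ± 0.504 CPM in shTRIM21 and 17.5 ± 1.201 CPM in shControl (-0.38, adjusted p = 0.0064). PIAS4, a SUMO ligase that restrains STAT signalling, fell with a log2 fold change of -0.25 (adjusted p = 0.0146, and 0.0615 without shControl replicate 1). RNF125, an E3 ligase that acts on RIG-I and the fifth gene that fell, had -0.31 (adjusted p = 0.0347). The median log2 fold change of the 20 was -0.04, and PTPN1, SOCS3, SOCS2 and PIAS4 lost their calls, with directions kept, when libraries were scaled by totals alone (adjusted p-values 0.437, 0.602, 0.505 and 0.88).

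Of 15 tested genes of the pathway that induces interferon, 3 rose and 1 fell, beside 20.8% called among all tested genes. TANK, an adaptor of the kinase TBK1, had 59.8, 54.8 and 57.0 CPM in shTRIM21, against 37.2, 36.3 and 35.6 CPM in shControl. The groups were far apart, with a log2 fold change of 0.65 (SE 0.06, adjusted p = 3.28e-06). STING1, the adaptor of cytosolic DNA sensing, had 15.03, 17.2 and 17.8 CPM in shTRIM21, against 11.9, 10.99 and 11.4 CPM in shControl, and rose (0.54, SE 0.09, adjusted p = 0.000908). TBKBP1, another adaptor of TBK1, averaged 14.7 ± 0.206 CPM in shTRIM21 and 11.9 ± 0.631 CPM in shControl (0.30, adjusted p = 0.0234). ZCCHC3, a cofactor of nucleic acid sensing, averaged 32.0 ± 0.894 CPM in shTRIM21 and 41.4 ± 3.75 CPM in shControl (-0.37, adjusted p = 0.00217), and lost its call with library totals alone (-0.17, adjusted p = 0.494). The call of TBKBP1 was lost without shTRIM21 replicate 2 or 3 (adjusted p = 0.0959 and 0.0514) and without shControl replicate 2 or 3 (0.0519 and 0.0864). Among 7 tested IRF-family and IRF2-binding genes outside the 52, IRF2BP1, a corepressor of IRF2, rose (0.31, adjusted p = 0.00862, and 0.055 without shTRIM21 replicate 2) and none fell. Of all tested genes, 9.77% were called higher and 11% lower.

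Of 36 other interferon targets that were tested, outside the 52, 4 rose and 5 fell, a share near the 20.8% called among all tested genes, and their median log2 fold change was -0.01. UBE2L6, the E2 enzyme of ISG15 conjugation, had 17.99, 17.6 and 15.6 CPM in shTRIM21, against 12.001, 9.60 and 11.2 CPM in shControl (0.64, SE 0.10, adjusted p = 0.000467). WARS1, a tryptophanyl-tRNA synthetase induced by interferon gamma, had 88.6, 85.9 and 87.3 CPM in shTRIM21, against 108, 122 and 123 CPM in shControl (-0.43, SE 0.06, adjusted p = 0.000121). CASP4, an inflammatory caspase, fell (-0.46, adjusted p = 0.00819), as did TRIM14, an adaptor of MAVS (-0.25, adjusted p = 0.0129, and 0.0552 without shTRIM21 replicate 1). Outside the naming rule, and so chosen after their values were seen, the other genes that rose were SHFL, TRIM34 and BATF2 (0.52, 1.18 and 0.86) and the others that fell were TAP1 and SP100 (-0.23 and -0.21). With library totals alone WARS1, CASP4 and TRIM14 lost their calls, at -0.22, -0.25 and -0.04 (adjusted p = 0.365, 0.345 and 0.902). Of 10 tested MHC class I genes, B2M and HLA-F rose and TAPBP and TAP2 fell, against 9.77% of all tested genes called higher and 11% lower. B2M, the light chain, averaged 372 ± 21.4 CPM in shTRIM21 and 325 ± 20.2 CPM in shControl (0.20, adjusted p = 0.0283), and TAPBP, the peptide-loading chaperone tapasin, averaged 125 ± 4.53 CPM in shTRIM21 and 163 ± 16.2 CPM in shControl (-0.38, adjusted p = 0.00101). B2M lost its call without shTRIM21 replicate 1 or 2 (adjusted p = 0.104 and 0.0973) and without shControl replicate 1 or 3 (0.0919 and 0.121). HLA-F (0.42, adjusted p = 0.0407) lost it without shTRIM21 replicate 2 or 3 (0.0813 and 0.174) and without shControl replicate 1 or 3 (0.0548 and 0.163). TAP2 (-0.23, adjusted p = 0.0149) lost it without shTRIM21 replicate 1 or 2 (0.0587 and 0.0682). With library totals alone B2M was at 0.40 (adjusted p = 0.0947), TAPBP at -0.18 (0.491) and TAP2 at -0.02 (0.948), and none of these 3 was called.

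Markers of other cell types were low in both groups. Of 12 immune cell markers, 2 were tested and neither was called, CD3E, MS4A1 and CLEC4C were listed at 0, PTPRC was too low to test, and the summed level was 6.92 to 8.66 CPM in shTRIM21 and 8.03 to 9.70 CPM in shControl. CD68, which had the smaller p, averaged 6.08 ± 0.459 CPM in shTRIM21 and 7.52 ± 0.500 CPM in shControl (log2 fold change -0.31, adjusted p = 0.0813). Of 7 fibroblast markers, 2 were tested and not called, DCN and LUM were listed at 0, and the sum was 10.5 to 11.1 CPM in shTRIM21 and 6.15 to 9.19 CPM in shControl. The groups did not overlap in that sum, and its part in the results was not tested. COL1A1 made up most of it, with 10.2 ± 0.259 CPM in shTRIM21 and 7.88 ± 1.62 CPM in shControl (0.37, adjusted p = 0.0589). It passed under 7 of the 17 alternative settings, and was 0.49 (adjusted p = 0.0343) without shControl replicate 3. The 5 endothelial markers summed to 0.343 to 0.773 CPM in shTRIM21 and 0.490 to 0.773 CPM in shControl. VWF, the 1 that could be tested, was not called (0.59, adjusted p = 0.432).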

How the data were processed

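Total RNA was depleted of ribosomal RNA and sequenced in 6 libraries. The authors deposited whole-number read counts per gene symbol, not normalized. The submitters' processing notes name the build hg38 and the tools TopHat2, limma 3.52.2 and edgeR 3.38.1, without saying what each did. Which program counted the reads, on which annotation and with which strand setting, is not given in the sources used here. Sample titles gave the group and replicate number of each library.

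Counts were analysed with R 4.3.3 and edgeR 4.0.16: filterByExpr (minimum count 10, minimum total 15), TMM scaling, and the quasi-likelihood F test of shTRIM21 against shControl without further terms, Benjamini-Hochberg adjusted over 15131 genes and called under 0.05. SE is the log2 fold change over the square root of F. CPM uses TMM-scaled library sizes. Alternatives included DESeq2 1.42.0 and limma-voom (limma 3.58.1), other scalings and filters, and left-out replicates.

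The 52 genes and the other lists were chosen with earlier results of these data known. Named were TRIM21, each of the 52 with its values, and up to 4 called genes per other list with the smallest p, or 1 where none was called; 1 gene that this rule took is not reported here. The epithelial markers named are called ones, with the intestinal CDX2 added after its values were seen, as were RNF125 and genes listed at 0 or too low. Positions and promoters are RefSeq (GRCh38.p14). Exon lengths and shared words are from GENCODE release 29, and the words of each gene are those of its longest transcript. Counts limit precision for genes read under about 50 times per library, such as IFITM1.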

Additional observations from a re-analysis of the deposited data

How the results depend on the processing

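The count of interferon-stimulated genes called higher was 9 in the reported fit and between 8 and 13 under the alternatives that kept all 6 libraries. It was 5 to 7 with 1 library left out, where 1 to 2 genes were called lower, the median log2 fold change lay between 0.039 and 0.118, and 1844 to 2590 genes were called in all, against 3146. With upper-quartile factors 1 gene was called lower and the median was 0.11. With library sizes alone 0 were called lower, the median was 0.29 and 1969 genes were called in all, of which 93.0% were higher, against 47.0% in the reported fit (62.1% with upper-quartile factors). With shControl replicates 1 and 3 left out together, 1 was called lower and 2037 in all. Deviations of same-numbered libraries from their group means were barely correlated (-0.01, 0.01 and -0.08 for numbers 1, 2 and 3). These values cannot show whether libraries of the same number were prepared together. A replicate block gave 8 genes higher and 2 lower, and 2905 in all. It was run with the number only as a label, and it gained LGALS3BP and lost ISG15 and DDX58. Over the 71 genes taken by the naming rule and the alternatives, 1201 fold changes were computed, of which 1022 kept direction and call, 99 lost the call, 38 gained it and 42 changed sign; the cause was not tested.

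With upper-quartile factors the sign changed for OASL (0.000773), IFI27 (0.022) and STAT2 (0.013). Library sizes alone turned IFIT2 (0.082), IFIT3 (0.064), IFIT5 (0.14), ISG20 (0.060), OASL (0.17), IFI27 (0.18), IFI35 (0.11), STAT2 (0.18), IRF1 (0.020), IRF7 (0.061), USP18 (0.16), PARP9 (0.11), PARP12 (0.038), PARP14 (0.13), PLSCR1 (0.000475) and EIF2AK2 (0.0078). With shControl replicates 1 and 3 left out it changed for ISG20 (0.011), IFIH1 (-0.11), USP18 (0.12) and DDX60 (-0.067). With 1 library left out the log2 fold change crossed 0 for 10 genes. It ran between -0.46 and 0.040 for IFIT2, between -0.32 and 0.16 for IFIT3, between -0.11 and 0.031 for IFIT5, between -0.33 and 0.035 for ISG20, between -0.39 and 0.18 for OASL, between -0.27 and 0.13 for IFI27, between -0.21 and 0.035 for IFI35, between -0.073 and 0.078 for IFIH1, between -0.053 and 0.00303 for STAT2 and between -0.16 and 0.00345 for USP18. Apart from EIF2AK2, none of these genes was called. Depth limits the genes under 1 CPM, such as MX1, DHX58, IFI27 and EPSTI1, whose 95% intervals span more than 1.5 log2 units.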
